A study of Mus musculus with 8 samples.

Results

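Cholesterol synthesis and its control by the transcription factor SREBP2 were followed in mouse liver through 30 genes, of 24972 genes in the table of normalized counts. The 30 were chosen by gene name and pathway step, with earlier results of these data known. They were 6 genes of SREBP2 and its processing and 8 of the mevalonate and prenyl steps. A further 11 were of the steps from squalene to cholesterol, and 5 of sterol transport and esterification. All 30 passed the filter on low values, a normalized count of at least 10 in at least 4 libraries, which left 13301 genes. The lowest value of any of the 30 in any library was 123, for Mvd.

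C57BL/6J mice were given AAV8, an adeno-associated virus, through a vein at 10 weeks of age, and liver RNA was taken 8 weeks later, at 18 weeks. The ATF3 group, 4 libraries, received AAV8-ALB-ATF3, which carries the stress-induced transcription factor ATF3. The Null group, also 4 libraries, received AAV8-ALB-Null. ALB was taken as the albumin promoter, which is active in hepatocytes. Both groups therefore carried virus, and no group without virus was analysed here. The study asked which genes ATF3 regulates in liver. Its design text gives 8 mice per group, and the labels do not say how mice relate to libraries, so p-values measure only the spread between these libraries, which may be technical. The sources used here do not give sex, feeding or hour of collection.

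SREBP2 is made as an inactive protein of the endoplasmic reticulum, held there with its escort Scap by the Insig proteins when sterols are plentiful. When sterols run low, Scap carries SREBP2 to the Golgi, site-1 and site-2 proteases release its active part, and this raises transcription of the genes that make cholesterol. The liver is a main site of cholesterol synthesis, and it also exports cholesterol in lipoproteins and in bile.

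The normalized counts summed to 23919261 to 25882965 in the ATF3 libraries and 26175086 to 28446045 in the Null libraries. Atf3 itself held 5611 to 7053 normalized counts in ATF3 libraries, against 20.3 to 24.5 in Null libraries. The Null 4 library stood apart: 28.2% of tested genes lay at least 0.5 on the log2 scale from the mean of the other Null libraries, against 6.92% to 16.1% in each other library. The 8 hepatocyte markers summed to 2574054 to 3085411 in ATF3 and 1582018 to 2702929 in Null. Most of this was Alb, at 2.19e+06 to 2.58e+06 in ATF3 and 1.26e+06 to 2.23e+06 in Null. The change was positive in 4 of the 8. Of the 8, 3 (37.5%) were called higher and 1 (12.5%) lower, beside 11.4% and 9.82% of all tested genes. The 12 macrophage markers summed to 14461 to 20501 in ATF3 and 12389 to 18738 in Null, and the 10 endothelial markers to 13244 to 13721 in ATF3 and 13401 to 15239.9 in Null. In limma 0 macrophage and 0 endothelial markers were called, with 0 and 1 at an unadjusted p under 0.05. Over all 13301 tested genes 2345 were higher and 2162 lower at that unadjusted p. The change was positive in all 12 macrophage and 4 of 10 endothelial markers, beside 6758 of all tested genes. Of the stellate, cholangiocyte and lymphocyte markers, 1 each was lower (Rgs5, Sox9 and Cd4), of 10, 6 and 7 tested. This was 10%, 16.7% and 14.3%, beside 9.82% of all tested genes. The change was positive in 2, 1 and 1 of these stellate, cholangiocyte and lymphocyte markers. Their sums were 11581 to 14079 in ATF3 and 12716 to 17536 in Null for stellate cells, 893 to 1267 in ATF3 and 887 to 1429 in Null for cholangiocytes, and 134 to 154 in ATF3 and 162 to 242.5 in Null for lymphocytes. Their part in the results was not tested.

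Most enzymes of cholesterol synthesis were higher in ATF3 livers. Of the 30 genes, 20 rose at an adjusted p under 0.05, 0 fell and 10 were not called, with limma on log2(normalized count + 1). At an unadjusted p under 0.05 the same fit had 20 higher and 3 lower. Over all 13301 tested genes that unadjusted threshold gave 2345 higher and 2162 lower. At the adjusted threshold 1513 (11.4%) of all tested genes were higher and 1306 (9.82%) lower. The increases were spread over the synthetic route: 7 of 8 mevalonate and prenyl genes and 10 of 11 genes from squalene onward rose, against 2 of 6 regulators and 1 of 5 transport and ester genes. The median change of the 30 was 0.63 on the log2 scale, beside 0.0068 over all tested genes. The 4 ATF3 libraries lay wholly above the 4 Null libraries in 19 of the 30, where this held for 13.7% of all tested genes. In 2 of the 30 they lay wholly below, where this held for 12.6%.

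The normalized counts of the 30 genes together summed to 140012, 143371, 131953 and 122422 in the ATF3 libraries, against 83243, 94095, 89499 and 82433 in the Null libraries. As a share of all normalized counts this was 0.494% to 0.585% in ATF3 and 0.290% to 0.345% in Null, so the groups did not overlap. In bulk liver, fewer cells of a type and less RNA per cell cannot be told apart, nor can more cells and more RNA per cell. Without Null 4, 20 of the 30 were higher and 3 lower, beside 1965 higher and 1812 lower of all 13301 tested genes. Without both Null 4 and Null 1, a choice made after seeing the data, 18 were higher and 0 lower. Over all tested genes these counts were then 1451 and 1311.

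**Figure D1:**
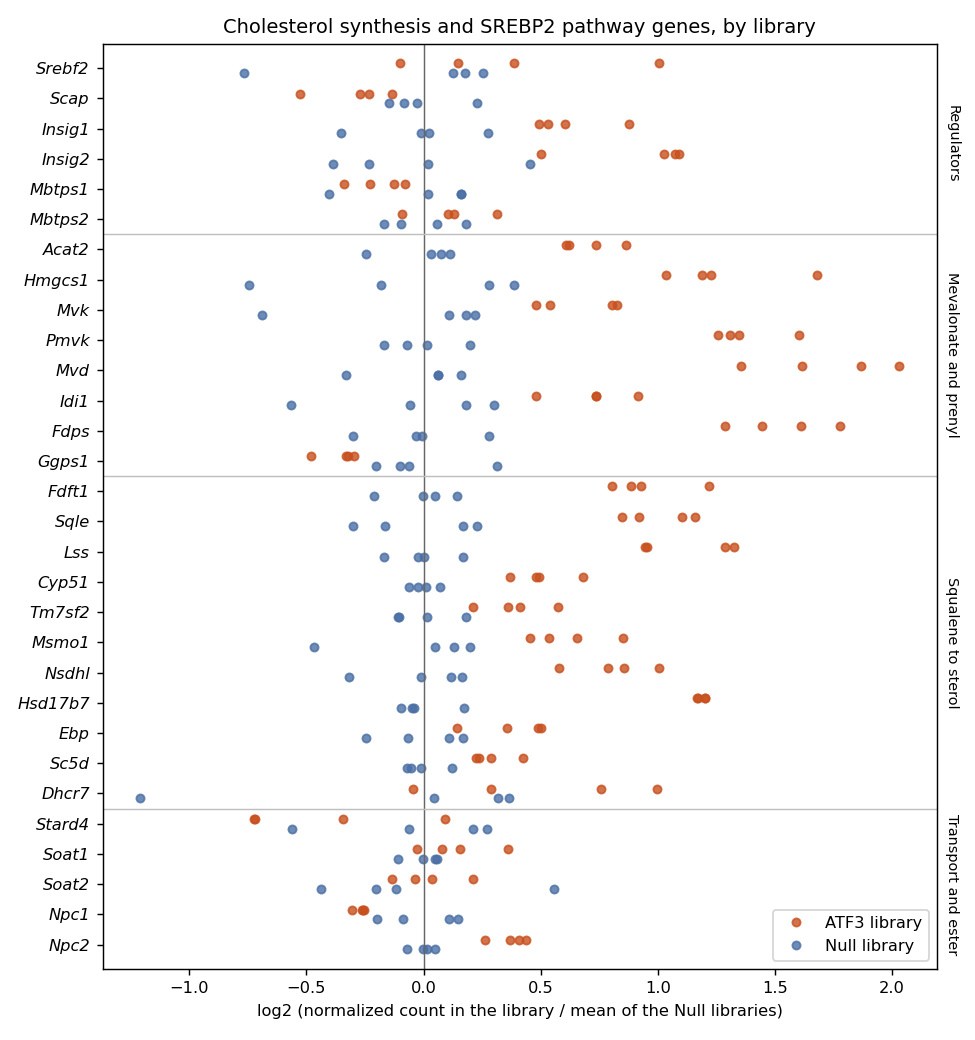
Each point is 1 library: the log2 of its normalized count over the mean of the 4 Null libraries, for the 30 genes by pathway step, ATF3 libraries in orange and Null libraries in blue. Most enzymes of both synthetic blocks sit to the right in ATF3, with Hsd17b7 in a tight cluster. Ggps1 sits to the left in ATF3. Ebp, Dhcr7 and most regulators and transport genes overlap between the groups.

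The count of higher genes in the whole table depended on scaling. With libraries rescaled to equal sums 2472 genes were higher and 837 lower, so 74.7% of calls were higher, beside 53.7% in the authors' scaling, and the median of all genes moved to 0.13. On the deposited TPM (transcript abundance per length, scaled to a fixed total) 440 were higher and 76 lower, 85.3% of calls, with the median of all genes at 0.68. One small RNA, Mir6236, held 0.319% to 37.0% of TPM in ATF3 libraries and 0.308% to 89.4% in Null libraries. Relative to the median of all genes, the median of the 30 was 0.62 higher with equal sums and 0.80 higher in TPM, beside 0.62 in the authors' scaling. All 30 were positive in TPM, with 1 called (Mvd), so the 5 genes with negative changes were positive there, at 0.39 to 0.72, around or below that scale's median of all genes. In TPM rescaled by median of ratios 25 of the 30 were positive, and those 5 (Scap, Mbtps1, Ggps1, Stard4 and Npc1) were again negative. When each library was left out in turn, 16 to 20 of the 30 were higher. Over all genes those counts were 1040 to 1965 higher and 851 to 1812 lower, the fewest without ATF3 3 and the most without Null 4.

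Promoter sequence was not used directly in the choice of genes, although a choice by pathway can favour genes with shared promoter elements. RefSeq promoter windows (GRCm38.p6), from 250 bases before to 50 after a start, were at hand for 24 of the 30 genes, in 30 windows. Sqle, Npc1, Fdft1, Fdps, Soat2 and Stard4 had none. In 25 of the 30 windows the first 40 transcribed bases were found in the gene's own GENCODE transcripts. The upstream 200 bases of 5 genes are shown 5′ to 3′ on the gene's strand: the genes with the sterol element core (Hmgcs1), the largest change (Mvd), a lone CCAAT box (Lss), the most CCAAT boxes (Mvk), and a called gene with none (Acat2). Capitals mark the CCAAT box, written CCAAT or as ATTGG on the other strand, and in Hmgcs1 also the sterol element core.
Hmgcs1: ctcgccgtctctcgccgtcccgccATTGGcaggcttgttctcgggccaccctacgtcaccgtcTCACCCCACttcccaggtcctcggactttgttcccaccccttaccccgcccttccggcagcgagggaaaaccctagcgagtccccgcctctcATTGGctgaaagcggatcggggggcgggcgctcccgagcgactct
Mvd: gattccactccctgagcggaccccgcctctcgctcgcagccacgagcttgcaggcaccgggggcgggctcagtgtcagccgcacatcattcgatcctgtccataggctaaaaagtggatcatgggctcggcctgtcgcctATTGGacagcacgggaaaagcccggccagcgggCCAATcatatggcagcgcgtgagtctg
Lss: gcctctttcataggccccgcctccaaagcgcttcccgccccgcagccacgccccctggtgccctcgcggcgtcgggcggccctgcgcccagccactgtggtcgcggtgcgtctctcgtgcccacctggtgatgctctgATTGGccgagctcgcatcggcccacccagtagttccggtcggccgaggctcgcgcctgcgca
Mvk: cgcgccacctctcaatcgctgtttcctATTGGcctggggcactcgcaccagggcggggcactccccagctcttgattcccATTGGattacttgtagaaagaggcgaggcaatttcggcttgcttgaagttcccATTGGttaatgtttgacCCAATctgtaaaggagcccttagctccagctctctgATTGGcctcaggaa
Acat2: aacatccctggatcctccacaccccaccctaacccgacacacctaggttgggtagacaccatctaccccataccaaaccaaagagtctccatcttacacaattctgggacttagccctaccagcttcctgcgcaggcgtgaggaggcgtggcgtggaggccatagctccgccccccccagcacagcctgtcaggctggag
These stretches lie at chr13:119690151-119690350 (plus strand), chr8:122443423-122443622 (minus strand), chr10:76531405-76531604 (plus strand), chr5:114444069-114444268 (plus strand) and chr17:12960726-12960925 (minus strand), each ending at the base before the RefSeq start of the gene it names. In GENCODE the Lss and Acat2 genes begin slightly earlier, so the ends of their stretches overlap the annotated gene. The Hmgcs1 gene begins slightly later there, at chr13:119690379, so distances from its start depend on the annotation used.

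The CCAAT box is the site of the factor NF-Y, a known partner of SREBP2 at sterol-regulated promoters. Its letters stood, on either strand, in 20 of the 24 genes with a window, beside 41.1% of 27025 genes with RefSeq windows and 43.1% of the 10412 of these that passed the filter. They stood in 16 of 17 called genes with a window and in 4 of 7 not called. The same split was not counted over all tested genes, and a link between the box and the calls was not tested. Of 43 matches 40 lay before the start, 26 of them within 100 bases, and the median distance of those before the start was 61.0 bases. In 12 genes there were at least 2 matches, and Mvk had 5. Neither the positions nor the number of matches per gene were counted over all promoters. All 9 squalene-to-sterol genes with a window had one, against 3 of 6 regulators.

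The sterol element core, TCACNCCAC, through which SREBPs bind, was found in 1 of 24 genes, Hmgcs1, starting 137 bases before the start, beside 1.44% of all genes and 1.51% of those tested. The GC box, GGGCGG, the site of Sp1, was in 21 of 24, beside 38.2% and 66.5%. The cyclic AMP response element, TGACGTCA, which ATF and CREB dimers can bind, was in 0 of 24, beside 2.03% and 3.41%. The AP-1 element, TGANTCA, was in 3 of 24 (Mbtps2, Msmo1 and Dhcr7), beside 8.97% and 6.53%. Both strands were read for each motif, and no match shared a base with a match of another motif. A match is a run of letters, not a site shown to be bound. A missing match speaks only of these exact letters in this window, and near matches were not counted.

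**Figure D2:**
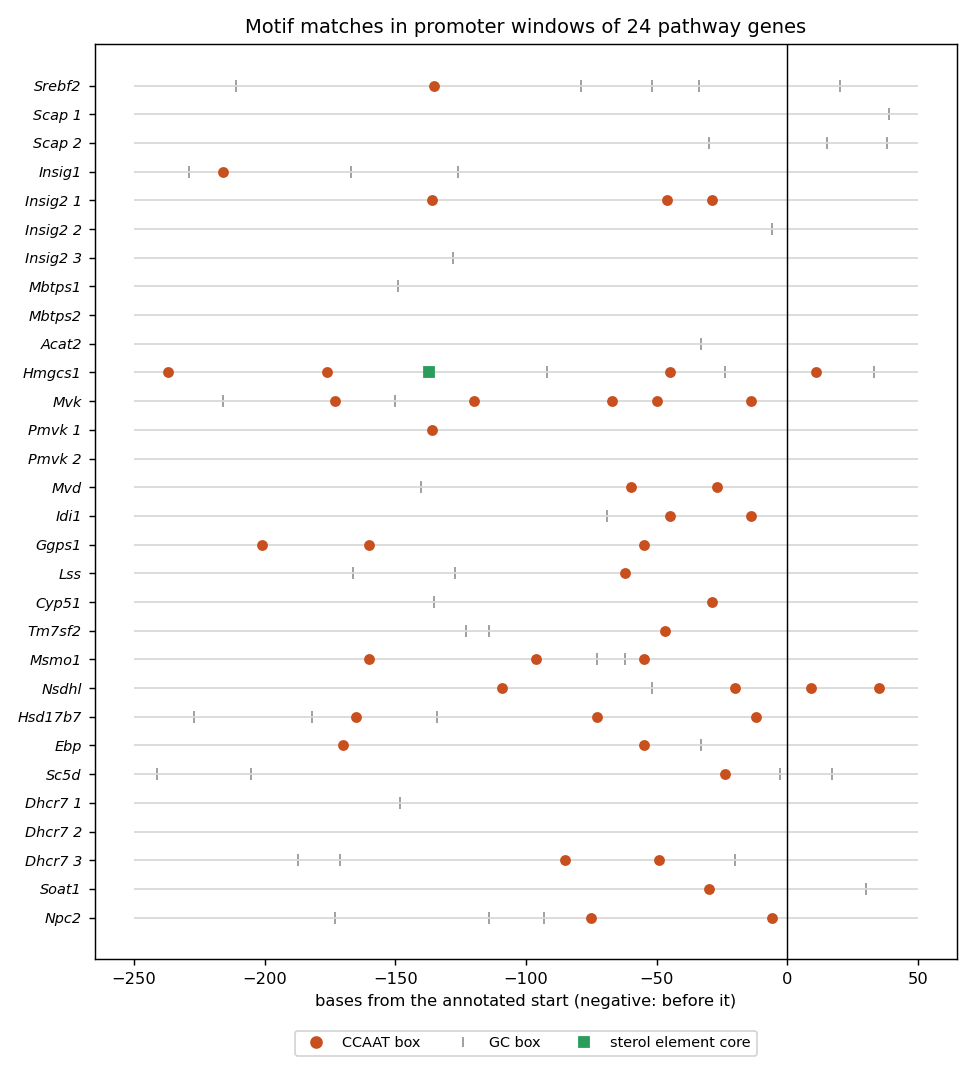
Positions of motif matches along the RefSeq windows of 24 genes, in bases from the annotated start (negative is upstream), 1 line a window; circles are CCAAT boxes, ticks GC boxes and the square the sterol element core. Of 43 CCAAT matches 26 lie within 100 bases upstream of the start, and the single sterol element core lies in Hmgcs1. Positions were not counted over all promoters.

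Among the regulators the Insig genes rose and the others were not called. Insig1, which retains Scap in the endoplasmic reticulum and is itself a target of SREBP2, held 12052, 14577, 11463 and 11163 normalized counts in the ATF3 libraries, against 8057, 7859, 6211 and 9585 in the Null libraries. Every ATF3 library was above every Null library, and Insig1 rose by 0.64 on the log2 scale (SE 0.14, adjusted p = 0.00909). Insig2, its relative with the same role, held 4518, 6714, 6502 and 6779 in the ATF3 libraries, against 2437, 4367, 3235 and 2713 in the Null libraries. The groups were again apart, although ATF3 1 came close to Null 2, and Insig2 rose by 0.96 (SE 0.19, adjusted p = 0.00568).

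The ratio of Insig1 to Insig2 within a library, in TPM and so per length, was 1.46 to 2.36 in ATF3 and 1.59 to 3.13 in Null. Its log2 difference was -0.32, ATF3 minus Null, with p = 0.286 by a two-sided exact permutation test over 70 assignments, whose smallest p is 0.0286 (adjusted over 2 ratios, 0.571). A shift in the balance of the 2 Insig transcripts was not detectable with 4 libraries a group.

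Srebf2, which encodes SREBP2, held 1399.8, 649.7, 911 and 772 normalized counts in the ATF3 libraries, against 831, 787, 759.5 and 409.8 in the Null libraries. The groups overlapped, with ATF3 1 far above the rest and Null 4 far below. Its change was 0.41 (SE 0.27, adjusted p = 0.318; 95% interval -0.19 to 1.01), not called, and was 0.18 without Null 4 and 0.20 without ATF3 1. The interval of Srebf2 thus spans a small decrease and a doubling, and it holds the median change of the 30 genes.

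Scap, the escort, held 4181, 4469, 4066 and 3407 in the ATF3 libraries, against 4639, 4822, 4432 and 5754 in the Null libraries. The groups overlapped by 1 pair of libraries (ATF3 2 and Null 3), and the change was -0.28 (SE 0.11, adjusted p = 0.109), not called. Of the exon bases of Scap, 13.2% are covered from the opposite strand by another gene, 5830462I19Rik. Mbtps1, the site-1 protease, had 1355 to 1628 in ATF3 and 1298 to 1916 in Null, a change of -0.18 (SE 0.13, adjusted p = 0.389). Of the alternatives tried, it was called lower without Null 4, its lowest Null library (-0.30, adjusted p = 0.0293), and with library weights. Mbtps2, the site-2 protease, had 257 to 341 in ATF3 and 244 to 311 in Null, a change of 0.12 (SE 0.12, adjusted p = 0.539). Its counts are uncertain, since Yy2 overlaps 28.4% of its exon bases on the same strand.

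The mevalonate and prenyl genes held the 4 largest changes of the 30. Mvd, the decarboxylase that makes isopentenyl diphosphate, held 563, 631, 474 and 396 normalized counts in the ATF3 libraries, against 172, 162, 161 and 123 in the Null libraries. The lowest ATF3 library of Mvd was more than double the highest Null library, and it rose by 1.72 on the log2 scale (SE 0.16, adjusted p = 6.10e-05). Fdps, farnesyl diphosphate synthase, held 7125, 10019, 8919.5 and 7938 in the ATF3 libraries, against 2371, 2853, 2906 and 3543 in the Null libraries. It too was wholly apart and rose by 1.54 (SE 0.14, adjusted p = 4.49e-05). Of the 31-base words (runs of 31 bases) in the transcripts of Fdps, 27.9% also occur in other genes, and Gm43738 overlaps 26.7% of its exon bases on the same strand.

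Pmvk, phosphomevalonate kinase, held 1499, 1837, 1542 and 1445 in the ATF3 libraries, against 577, 612, 538 and 695 in the Null libraries. The libraries agreed closely within each group, and Pmvk rose by 1.38 (SE 0.11, adjusted p = 2.02e-05). Hmgcs1, the cytosolic HMG-CoA synthase and the gene with the sterol element core above, held 24681, 18042, 17552 and 15791 in the ATF3 libraries, against 6796, 9351, 10047 and 4594 in the Null libraries. Its libraries were spread, with ATF3 1 highest and Null 4 lowest, yet did not overlap, and it rose by 1.35 (SE 0.24, adjusted p = 0.00276); without Null 4 the change was 1.12 (adjusted p = 0.00105).

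Smaller increases were found at the first step and in the middle of the block. Acat2, the cytosolic thiolase that joins acetyl-CoA units, held 2695, 3189, 2917 and 2669 in the ATF3 libraries, against 1476, 1896, 1843 and 1789 in the Null libraries, and rose by 0.71 (SE 0.11, adjusted p = 0.000975). Of its 31-base words 43.7% also occur in other genes, mainly Acat3, which rose by 0.71 (SE 0.12, adjusted p = 0.00236), so the reads of this pair may be divided between them. Idi1, the isomerase of isopentenyl diphosphate, held 10924, 9658, 9650.3 and 8079 in the ATF3 libraries, against 5558, 6562, 7139.7 and 3913 in the Null libraries. Idi1 was apart between the groups and rose by 0.75 (SE 0.18, adjusted p = 0.0137), with 18.8% of its words shared with other genes.

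Mvk, mevalonate kinase, held 728, 739, 606 and 582 in the ATF3 libraries, against 259, 450.0, 486 and 473 in the Null libraries. Null 1 was well below the rest, and Mvk rose by 0.70 (SE 0.20, adjusted p = 0.0282). Its call was lost without ATF3 1, ATF3 2 or ATF3 3 (adjusted p = 0.0683, 0.0773 and 0.0561), while the change was 0.49 without Null 1 (adjusted p = 0.0194). Ggps1, which extends farnesyl to geranylgeranyl diphosphate for protein prenylation, was the exception. It held 339.5, 385, 376 and 378 in the ATF3 libraries, against 441, 410.3, 453 and 588 in the Null libraries. All ATF3 libraries of Ggps1 were below all Null libraries, but the change of -0.34 was not called (SE 0.12, adjusted p = 0.0744; 95% interval -0.62 to -0.07).

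**Figure D3:**
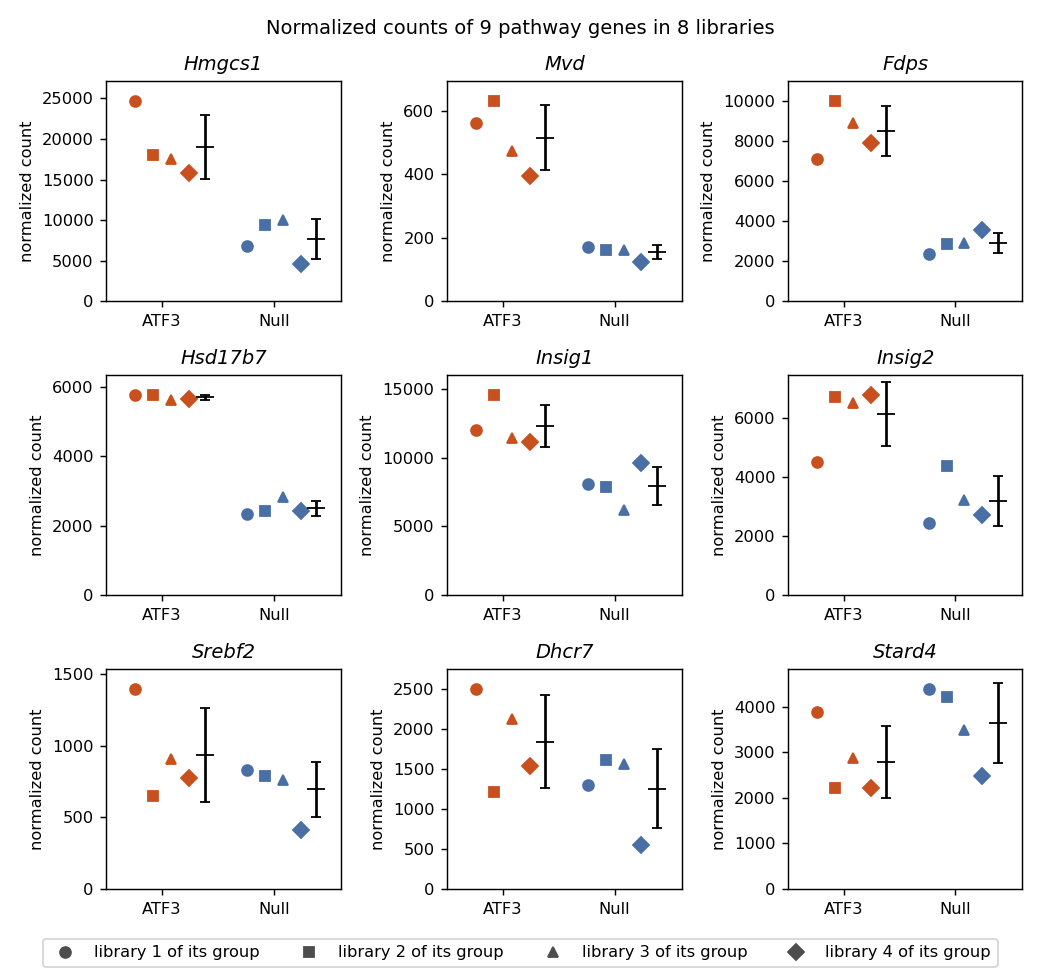
Normalized counts of 9 genes in each library, ATF3 left of Null, each marker shape standing for 1 library number within its group and the bar for mean and SD (n = 4 each). Hmgcs1, Mvd, Fdps, Hsd17b7, Insig1 and Insig2 are apart between groups, while Srebf2, Dhcr7 and Stard4 overlap, with library 1 high in ATF3 and library 4 low in Null.

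From squalene onward 10 of 11 genes rose, by 0.30 to 1.19 on the log2 scale. Hsd17b7, a keto-reductase of sterol demethylation at carbon 4, had the smallest adjusted p of the 30. It held 5778, 5769, 5642 and 5661 normalized counts in the ATF3 libraries, against 2352, 2425, 2828 and 2440.1 in the Null libraries. The 4 ATF3 libraries spanned only a narrow range, with a coefficient of variation of 1.24%, against 8.54% in Null, and Hsd17b7 rose by 1.19 (SE 0.085, adjusted p = 8.05e-06).

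The genes that make and cyclise squalene rose next most. Lss, lanosterol synthase, held 2853, 2781, 2205 and 2194 in the ATF3 libraries, against 1014, 1141, 1281 and 1120.3 in the Null libraries, and rose by 1.13 (SE 0.12, adjusted p = 0.000112). Sqle, squalene epoxidase, held 3539, 3404, 3004 and 2857 in the ATF3 libraries, against 1415, 1781, 1861 and 1289 in the Null libraries, and rose by 1.02 (SE 0.13, adjusted p = 0.000465). Fdft1, squalene synthase, held 3912, 4783, 3801 and 3596 in the ATF3 libraries, against 1779, 2126, 2053 and 2273 in the Null libraries, and rose by 0.96 (SE 0.11, adjusted p = 0.000242). All 3 were about doubled and wholly apart between groups. Fdft1 shares 14.3% of its words with other genes, and Ctsb covers 18.3% of its exon bases from the opposite strand.

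Nsdhl, Msmo1 and Cyp51 rose less. Nsdhl, a sterol dehydrogenase of the same demethylation, averaged 2778 ± 338 in ATF3 and 1578 ± 224 in Null (SD, n = 4 each) and rose by 0.82 (SE 0.13, adjusted p = 0.00146). Msmo1, the methyl sterol monooxygenase, averaged 6413 ± 784 in ATF3 and 4138 ± 787 in Null and rose by 0.65 (SE 0.15, adjusted p = 0.0132). Cyp51, the lanosterol demethylase, averaged 7698 ± 696 in ATF3 and 5408 ± 214 in Null and rose by 0.51 (SE 0.090, adjusted p = 0.003). In each of these 3 genes all ATF3 libraries were above all Null libraries.

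The smallest called changes of the block were also its least stable. Tm7sf2, a sterol reductase acting at carbon 14, averaged 2748 ± 284 in ATF3 and 2089 ± 203 in Null (SD, n = 4 each) and rose by 0.39 (SE 0.11, adjusted p = 0.0233). Sc5d, the sterol desaturase, averaged 13962 ± 916 in ATF3 and 11377 ± 701 in Null and rose by 0.30 (SE 0.091, adjusted p = 0.0427). Ebp, the sterol isomerase, averaged 4923 ± 545 in ATF3 and 3785 ± 479.8 in Null and rose by 0.38 (SE 0.12, adjusted p = 0.0458), although ATF3 1 lay below Null 4. Tm7sf2 missed the threshold, with adjusted p up to 0.0701, when ATF3 2, ATF3 3, Null 1 or Null 3 was removed. Sc5d missed it when any 1 of the ATF3 libraries, Null 1 or Null 3 was removed (up to 0.121). Ebp missed it when any 1 library other than ATF3 1 and Null 4 was removed (up to 0.134). Ebp and Sc5d also missed it with no filter on low values (adjusted p = 0.0572 for Ebp and 0.0661 for Sc5d), with no variance trend (0.0723 for Ebp and 0.0574 for Sc5d) and in rescaled TPM (0.0520 for Ebp and 0.0504 for Sc5d). Tm7sf2 shares 12.9% of its words with other genes, Vps51 among them.

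Dhcr7, which reduces 7-dehydrocholesterol to cholesterol, was the 1 gene of the block not called. It held 2501, 1214, 2116 and 1529 in the ATF3 libraries, against 1294, 1615, 1561 and 542 in the Null libraries. ATF3 2 was below 3 of the Null libraries, and Null 4 was far below all others. The change was 0.62 (SE 0.34, adjusted p = 0.24; 95% interval -0.15 to 1.38), and 0.26 without Null 4 (adjusted p = 0.402).

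**Figure D4:**
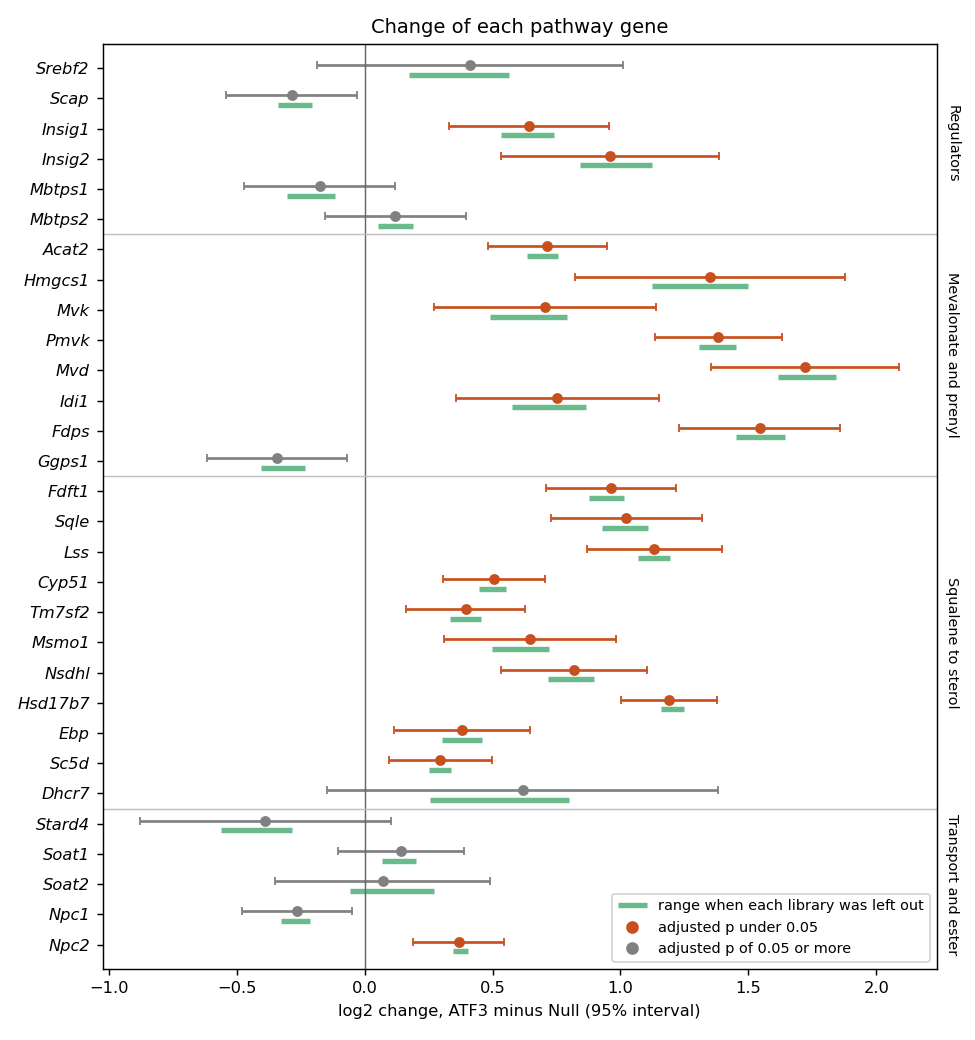
Log2 change, ATF3 minus Null, of each of the 30 genes with its 95% interval (orange where the adjusted p was under 0.05, grey otherwise); the green bar is the range of the change when each library was left out in turn. The largest change is that of Mvd (1.72), the widest intervals are those of Dhcr7, Srebf2 and Hmgcs1, and Soat2 crosses 0 when a library is left out.

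Sterol transport and esterification did not follow the enzymes as a block: 1 of 5 genes rose and 0 fell. At an unadjusted p under 0.05 limma gave 1 higher and 1 lower. Over all 13301 tested genes that threshold gave 2345 higher and 2162 lower. Npc2, the soluble protein that hands cholesterol to Npc1 in the lysosome, held 1340.4, 1482, 1513 and 1444 normalized counts in the ATF3 libraries, against 1067, 1132, 1158 and 1119 in the Null libraries. The groups were apart, and Npc2 rose by 0.37 (SE 0.080, adjusted p = 0.00901). Its membrane partner Npc1 held 5139, 5149, 5172 and 4986 in the ATF3 libraries, against 6831, 6660.4, 5807 and 5373 in the Null libraries. Here every ATF3 library was below every Null library, but the change of -0.26 was not called (SE 0.096, adjusted p = 0.0779). Without Null 4, its lowest Null library, Npc1 was called lower (-0.33, adjusted p = 0.0153).

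Stard4, a soluble sterol carrier and a known SREBP2 target, held 3889.7, 2207, 2869.9 and 2216 in the ATF3 libraries, against 4402, 4216, 3489 and 2473 in the Null libraries. The groups overlapped, and the change was -0.39 (SE 0.22, adjusted p = 0.249; 95% interval -0.88 to 0.10), a negative value beside the increases of the enzymes. Without Null 4 it was called lower (-0.56, adjusted p = 0.0455), and without both Null 4 and Null 1 it was -0.50 (adjusted p = 0.139).

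The enzymes that esterify cholesterol were not called. Soat1 averaged 305 ± 35.7 in ATF3 and 275 ± 14.4 in Null (SD, n = 4 each), a change of 0.14 (SE 0.11, adjusted p = 0.405). Soat2, the form of hepatocytes and intestine, averaged 673 ± 69.4 in ATF3 and 662 ± 214 in Null, a change of 0.070 (SE 0.19, adjusted p = 0.83), with Null 4 highest at 974. Per length, the TPM of Soat1 was 0.165 to 0.246 of that of Soat2 in ATF3 and 0.138 to 0.264 in Null. The log2 ratio differed by 0.0718 (two-sided exact permutation test, p = 0.771), and by -0.11 without Null 4.

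The unequal changes altered the make-up of the pathway's RNA. On the TPM scale, each gene was expressed as a percentage of the summed TPM of the 30 genes in its own library, a quantity that Mir6236 cannot move. Mevalonate and prenyl genes made up 37.1% ± 1.25 in ATF3 and 26.5% ± 2.47 in Null (SD, n = 4 each). Genes from squalene onward made up 42.7% ± 0.569 in ATF3 and 48.1% ± 0.933 in Null. Transport and ester genes made up 4.09% ± 0.326 in ATF3 and 7.40% ± 0.878 in Null. The groups were apart in each of these 3, with ATF3 above for the mevalonate block and below for the other 2. Taken from normalized counts, which weight long transcripts more, the share of the squalene-onward block overlapped between the groups. Its difference was then -0.79 percentage points, beside -5.34 in TPM. Regulators made up 16.1% ± 0.906 in ATF3 and 18.0% ± 1.76 in Null, with overlap. Shares sum to 100 in a library, so a larger share of one block lowers the others without any loss of its RNA.

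Fdps and Hmgcs1 gained most share. Fdps was 13.0% ± 1.47 in ATF3 and 7.27% ± 1.19 in Null, the largest of the 30 in ATF3. Sc5d, the largest in Null, was 12.4% ± 0.417 in ATF3 and 16.4% ± 0.911 in Null, while its normalized counts rose by 0.30 on the log2 scale. Hmgcs1 was 10.4% ± 2.03 in ATF3 and 6.81% ± 1.98 in Null. Npc1 was 1.67% ± 0.0977 in ATF3 and 3.28% ± 0.451 in Null and Scap was 1.57% ± 0.0810 in ATF3 and 3.13% ± 0.437 in Null. In all of these the groups did not overlap. The smallest were Soat1 (0.118% ± 0.0167 in ATF3 and 0.173% ± 0.0193 in Null) and Mbtps2 (0.126% ± 0.0130 in ATF3 and 0.189% ± 0.0163 in Null).

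**Figure D5:**
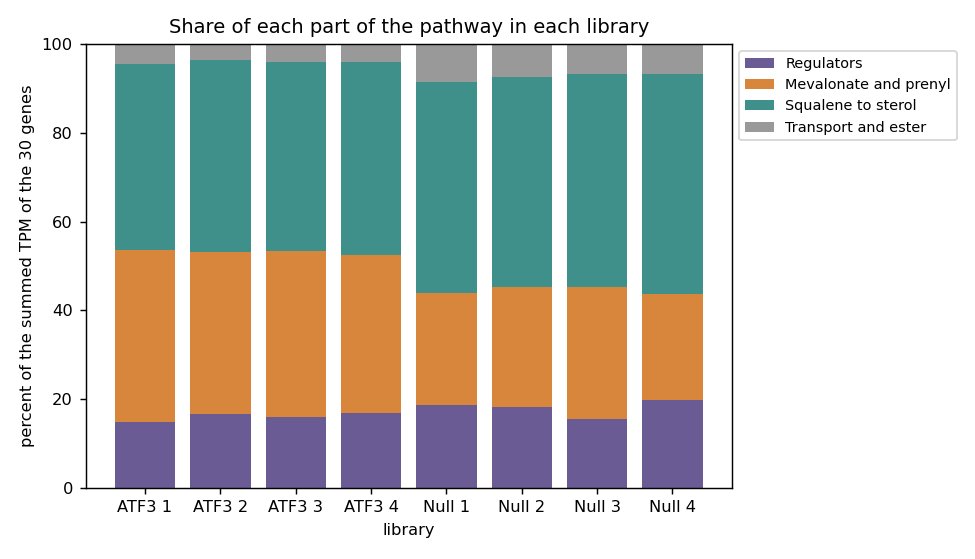
Stacked bars give, for each library, the percent of the summed TPM of the 30 genes held by regulators, mevalonate and prenyl genes, squalene-to-sterol genes, and transport and ester genes. The mevalonate block averages 37.1% in the 4 ATF3 libraries and 26.5% in the 4 Null libraries, without overlap.

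Over the 30 genes, ATF3 2 was the highest ATF3 library in 15 and ATF3 1 in 11. ATF3 4 was the lowest ATF3 library in 17. Null 4 was the lowest Null library in 12 and the highest in 10. ATF3 1 was the highest ATF3 library and Null 4 the lowest Null library in 8 of the 30: Srebf2, Mbtps1, Mbtps2, Hmgcs1, Idi1, Sqle, Dhcr7 and Stard4. Such ranks were not counted over all tested genes. In Null 4, 7 of the 30 lay at least 0.5 on the log2 scale from the mean of the other Null libraries, 6 below and 1 above. Over all tested genes this held for 28.2%. The lowest of the 7 were Dhcr7 at -1.45, Srebf2 at -0.95 and Hmgcs1 at -0.91, and the 1 above was Soat2 at 0.81. In ATF3 1, 5 of the 30 lay that far from the other ATF3 libraries, 4 above and 1 below, beside 10.3% of all tested genes. In ATF3 3 and ATF3 4 it was 0 of the 30, beside 7.67% and 6.92% of all tested genes. What these libraries share beyond their values is not given in the labels.

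Of the 20 called genes, 16 were called in all 8 fits that left out 1 library: Insig1, Insig2, Acat2, Hmgcs1, Pmvk, Mvd, Idi1, Fdps, Fdft1, Sqle, Lss, Cyp51, Msmo1, Nsdhl, Hsd17b7 and Npc2. The 4 lost in some of these fits are Mvk, Tm7sf2, Ebp and Sc5d, described above.

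Neighbouring pathways were followed through 6 lists, 89 of whose 91 genes were tested. These lists too were chosen with earlier results of these data known. Of the 89, 19 (21.3%) rose and 11 (12.4%) fell, beside 11.4% and 9.82% of all tested genes. With equal sums 31 were higher and 6 lower. Without Null 4 the counts were 25 and 12, and the lower count was 6 without ATF3 3 or Null 2 and 7 without ATF3 2 or ATF3 4. Among suppliers of carbon and reducing power for synthesis, 7 of 13 rose and 1 fell (median 0.39 on the log2 scale). Acly, which makes cytosolic acetyl-CoA, rose by 1.29 (SE 0.13, adjusted p = 0.000102). The sources of NADPH G6pdx, Pgd and Idh1 rose by 0.96, 0.93 and 0.84. The others called, named after their values were seen, were Por, Taldo1 and Cyb5b, which were higher, and Cyb5a, which was lower.

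Of 17 genes of sterol sensing, degradation of sterol sensors and partner factors, 1 rose and 2 fell (median 0.026). Of the NF-Y subunits, whose box was counted in the promoters above, Nfya and Nfyb were called and differed in direction and in stability. Nfyc, named after its values were seen, was not called (-0.21, SE 0.11, adjusted p = 0.208), and its groups overlapped. Nfya rose by 0.55 (SE 0.17, adjusted p = 0.0436), but missed the threshold (adjusted p up to 0.125) when any 1 library other than ATF3 2 and Null 1 was removed. Nfya also missed it with no filter on low values, with quantile normalization and with no variance trend (adjusted p = 0.0610, 0.0528 and 0.0562). Nfyb fell by 0.81 (SE 0.092, adjusted p = 0.000184), and was called lower in all 8 fits that left out 1 library. Its TPM change was 0.11, below the TPM median of all genes, and -0.73 in TPM rescaled by median of ratios. Nfyb held 383, 354, 401 and 397 normalized counts in the ATF3 libraries, against 662, 724, 691 and 623 in the Null libraries, without overlap. Rnf145, a sterol-responsive ubiquitin ligase of the endoplasmic reticulum, fell by 1.17 (SE 0.15, adjusted p = 0.000346).

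The branch that uses farnesyl and geranylgeranyl groups for products other than sterols had 3 of 21 genes called higher, 14.3% beside 11.4% of all tested genes, and 0 lower (median 0.15). At an unadjusted p under 0.05 limma gave 5 higher and 1 lower, beside 2345 and 2162 of all 13301 tested genes. The 3 were Pdss1, Coq3 and Coq6, all of ubiquinone synthesis, at 0.70, 0.53 and 0.44. Other genes of that synthesis, named after their values were seen, were not called. These were Pdss2 (0.15), Coq2 (-0.013), Coq5 (0.16), Coq7 (0.23) and Coq9 (0.19). Pdss1 was called in all 8 fits that left out 1 library. Coq3 missed the threshold (adjusted p up to 0.0910) when any 1 library other than ATF3 1, Null 2 and Null 4 was removed, and Coq6 (up to 0.0975) when any 1 other than ATF3 1 and Null 4 was. Coq6 also missed it with quantile normalization (0.0628). Of 10 tested genes of oxysterols and their receptor LXR, 3 rose and 1 fell (median -0.055). Abcg5 and Abcg8, which together form the canalicular sterol exporter, rose by 1.24 and 0.98. Cyp27a1, the sterol 27-hydroxylase, rose by 0.50, and Cyp7b1, an oxysterol hydroxylase, fell by 0.80 (0.20 in TPM, below the TPM median of all genes, and -0.80 in rescaled TPM).

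Of 16 tested genes of intracellular sterol transfer, 1 rose and 5 fell (median -0.045). Lipa, the lysosomal acid lipase that frees cholesterol from its esters, rose by 1.05 (SE 0.15, adjusted p = 0.000674). Stard5, Gramd1c and Nceh1 fell by 0.69, 0.77 and 0.40, although in TPM their changes were 0.27, 0.12 and 0.52, below that scale's median of all genes, and -0.66, -0.70 and -0.37 once TPM was rescaled by median of ratios. Nceh1 missed the threshold without ATF3 2, Null 2 or Null 3 (adjusted p up to 0.0601) and with equal sums (0.0960). Osbpl9 and Gramd1a, named after their values were seen, also fell. Of 12 genes tied to SREBP1 and lipogenesis, 4 rose and 2 fell (median 0.23). Srebf1, the gene of the sister factor SREBP1, held 9014, 9132, 9975 and 9914 normalized counts in the ATF3 libraries, against 3763, 4439, 3394 and 3931 in the Null libraries, and rose by 1.30 (SE 0.10, adjusted p = 1.40e-05). Its groups were wholly apart, unlike those of Srebf2. Whether the changes of Srebf1 and Srebf2 differ was not tested. Elovl5, Thrsp and Fasn rose by 2.03, 2.09 and 0.89, and Scd1 and Mlxipl, named after their values were seen, fell.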

How the data were processed

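Total liver RNA was sequenced after TruSeq stranded total RNA preparation, per the labels' protocols. The deposited values are normalized counts per gene (a signal, scaled by the authors, with no whole reads recovered) and the authors' TPM. Bowtie2 and mm10 are named in the submitters' processing notes; the sources used here do not give the counting and strand settings. Raw depth is unknown, so no counting intervals are given.

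Genes with at least 10 in at least 4 of 8 libraries (13301 of 24972) were tested on log2(normalized count + 1) with limma 3.58.1 in R 4.3.3, trended eBayes, two-sided, Benjamini-Hochberg over all of them; an adjusted p under 0.05 is called. The pseudocount understates changes of low genes. Intervals are moderated 95% intervals. No 2 libraries held identical values. The fit was tested on simulated data. Within-library ratios used exact permutation tests (scipy 1.17.1).

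Members and lists were chosen with earlier results of these data known. All 30 members, Atf3 and up to 4 called genes per related list, by smallest p, are named; any other is said to be named later. Shared words are 31-base runs of GENCODE transcripts. Alternatives changed the pseudocount, filter, scaling, table, variance model and libraries.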

Additional observations from a re-analysis of the deposited data

Results flagged for a closer look

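In 118 groups of 4 libraries 1 library was compared with the rest of its group, as the gap to its nearest neighbour over the group's range. This passed Dixon's critical value for 4 samples in 6, and chance alone gives about 1 in 20. Srebf2 in Null reached 0.830, with Null 4 lowest at 409.8 normalized counts. Insig2 in ATF3 reached 0.878, with ATF3 1 lowest at 4518. Mvk in Null reached 0.842, with Null 1 lowest at 259. Of the related genes, Stard5 in Null reached 0.890, Lipa in Null 0.852 and Nceh1 in Null 0.851.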

How the results depend on the processing

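With equal sums, 2472 genes were higher and 837 lower over the whole table, and 31 and 6 in the related lists. On the deposited TPM these were 440 and 76, and 2 and 0, with 1 of the 30 higher. On that scale these changes turned positive: Scap 0.677, Mbtps1 0.725, Ggps1 0.393, Stard4 0.57, Npc1 0.706, Nfyb 0.107, Cyp7b1 0.20, Stard5 0.275, Gramd1c 0.116 and Nceh1 0.524. Each lies near or below the median of all genes on that scale (0.68), apart from Mbtps1 and Npc1 slightly above it, and each was negative in TPM rescaled by median of ratios. With library weights 2271 and 2130 genes were called, 4 of the 30 were lower (Scap, Mbtps1, Stard4 and Npc1), and Mbtps2 was -0.0081. Leaving out each library gave 1040 to 1965 higher and 851 to 1812 lower over all genes, 16 to 20 and 0 to 3 of the 30, and 15 to 25 and 6 to 12 in the related lists. Removing 1 library, or both Null 1 and Null 4 (chosen after seeing the data), gave -0.0060 to 0.189 for Mbtps2, lowest without both, and -0.058 to 0.297 for Soat2, lowest without Null 3. The log2 ratio difference ranged from -0.48 to -0.15 for Insig1 over Insig2 and from -0.11 to 0.20 for Soat1 over Soat2, the lowest, -0.113, without Null 4. In normalized counts in place of TPM, the share of squalene-to-sterol genes differed by -0.79 percentage points (-5.34 in TPM) and that of transport genes by -5.91 percentage points (-3.32 in TPM). In these changes the cause was not tested. The other scalings, pseudocounts, filters and variance models kept both counts of the 30 within 1.5 times, although Ebp and Sc5d lost their calls under 3 of them. With 150 bases upstream, CCAAT was in 19 of 24 genes and the AP-1 element in 2. No paired analysis was possible because the labels number the libraries without shared replicate numbers. Raw depth is unknown, and 4 libraries a group limit the precision of Srebf2, Dhcr7 and Stard4.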
